A study of Mus musculus with 15 samples.

Results

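The neurotrophin system was examined through 8 genes, Bdnf, Ntf3, Ntrk2, Ntrk3, Ngfr, Sort1, Vgf and Nrn1, chosen by name and matched from Entrez identifier to mouse symbol. All 8 were present among the 27179 identifiers of the count table, and all 8 passed the filter on low counts that left 16816 genes for testing. Bulk RNA of dissected medial prefrontal cortex (mPFC) from C57BL/6J mice had been sequenced in 15 libraries, which fell into 4 groups by ABX treatment and by stage, that is, sampling after or before the mice underwent fear extinction. There were 4 post-extinction ABX, 4 post-extinction non-ABX, 4 pre-extinction ABX and 3 pre-extinction non-ABX libraries (replicates 1, 3 and 4). ABX commonly stands for an antibiotic mixture; the labels name no drugs or doses and do not describe the fear conditioning of any group. Depth was 45832528 to 48830512 counts in post-extinction ABX, 47863644 to 53892681 in post-extinction non-ABX, 44254906 to 55058397 in pre-extinction ABX and 49231174 to 57929503 in pre-extinction non-ABX libraries. The labels do not tie libraries to single animals, so the p-values measure the spread between libraries, which may be partly technical.

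Neurotrophins are secreted growth factors that keep neurons alive during development and adjust synapses in the adult brain. They are made as precursors, cleaved by proteases, and bind either a Trk receptor tyrosine kinase, which signals to growth and survival pathways, or the pan-neurotrophin receptor, which prefers the uncleaved precursors together with sortilin. Brain-derived neurotrophic factor (BDNF) and its receptor TrkB act in cortical plasticity, and BDNF is known to take part in fear extinction in rodents. Transcription of Bdnf, Vgf and Nrn1 is known to follow neuronal activity.

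In none of 7 comparisons did any of the 8 genes pass the edgeR quasi-likelihood test, for which the p, corrected for all genes in the fit by the Benjamini-Hochberg method, had to be under 0.05. For ABX against non-ABX before extinction 0 of 8 were called, against 0.00595% of all genes tested, and after extinction 0 of 8 against 0.0178%. For post- against pre-extinction libraries 0 of 8 were called in non-ABX mice, against 0% of all genes, and 0 of 8 in ABX mice, against 0.0951%. The interaction, which asks whether the ABX difference was the same at both stages, called 0 of 8 members and 0% of all genes. Averaging over the other factor gives each comparison all 15 libraries. The ABX difference averaged over stages then called 0 of 8 against a background of 0.624%, and the stage difference averaged over treatment 0 of 8 against 0.963%. At an unadjusted p under 0.05 these last comparisons held 1 and 3 members, against 30.6% and 20.4% of all genes. In the ABX average 7 of the 8 members had negative log2 fold changes (median -0.085), against 47.5% of all genes (median 0.011), and in the stage average 4 of 8 did (median -0.017), against 49.8% (median 0.001). The sizes below are therefore estimates with their intervals, and the 2 members with the smallest adjusted p in edgeR were Vgf for ABX and Bdnf for stage.

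**Figure D1:**
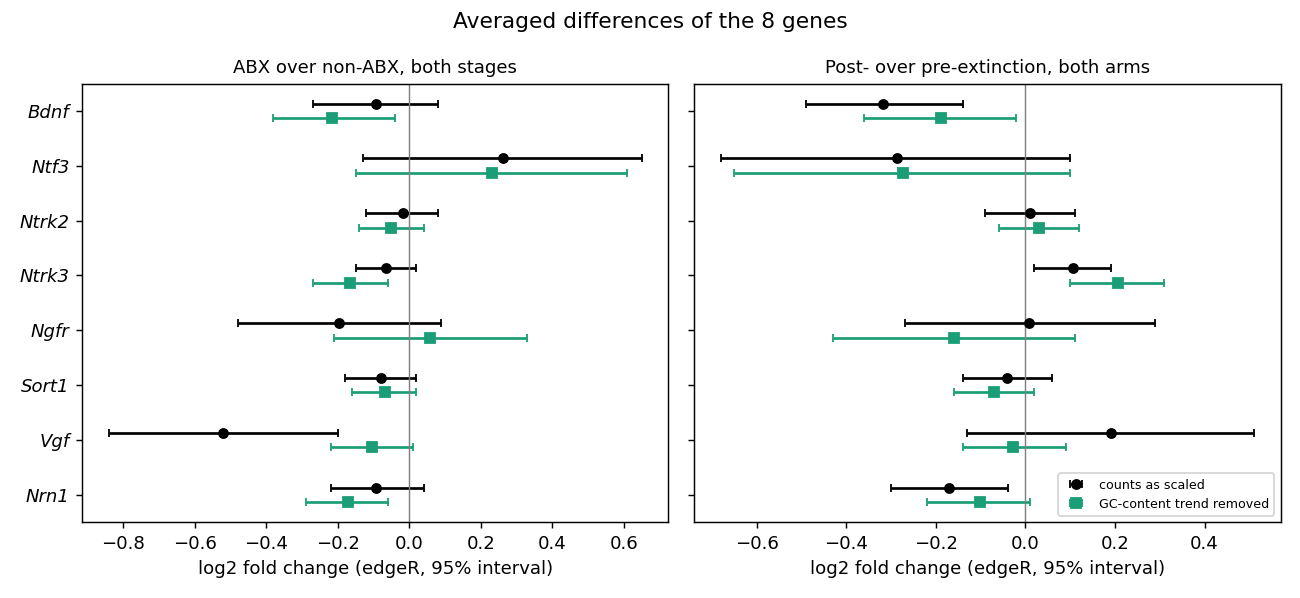
The log2 fold change (x axis) of each of the 8 genes (rows) is plotted with its 95% interval for ABX over non-ABX (left) and post- over pre-extinction (right), each averaged over the other factor. Black circles are counts as scaled and green squares have each library's GC-content trend removed, where Vgf with ABX is at -0.10, against -0.52 in counts as scaled.

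Across the whole series, the summed levels of endothelial markers did not overlap between ABX and non-ABX libraries at either stage. The summed CPM (counts relative to library size, with TMM scaling) of 10 endothelial markers ran from 175.8 to 246.1 in post-extinction ABX, from 255.0 to 269.1 in post-extinction non-ABX, from 175.5 to 243.8 in pre-extinction ABX and from 253.9 to 280.8 in pre-extinction non-ABX libraries, and 4 of the 10 genes were called lower with ABX on average, against 0.464% of all genes, with 0 called at either stage alone. Pericyte and smooth muscle markers also had 4 of 10 called lower on average, against the same 0.464%. No endothelial or pericyte marker was at 0 in every library. All 5 tested blood markers had positive averaged ABX values, against 52.5% of all genes, and 0 were called. Summed blood markers had medians of 1.415, 0.478, 0.612 and 0.633 CPM in post-extinction ABX, post-extinction non-ABX, pre-extinction ABX and pre-extinction non-ABX libraries. The highest libraries were at 10.73, 2.628, 2.898 and 0.72 CPM in the same order. The part of these cell types in the values of the neurotrophin genes was not tested. In bulk tissue, fewer cells of a type and less RNA per cell cannot be told apart. The mPFC dissection held cortical excitatory neurons, whose 10 markers summed to between 6107.4 and 7875.7 CPM in every library, and the markers of striatum, which lies close to this region, summed to between 254.2 and 338.9 CPM.

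Per length of exon, the genes spanned a wide range of levels. Sortilin and neuritin transcripts were the most abundant, at 124 (107.9 to 135.5 over 15 libraries) and 105.7 (81.7 to 126.1) CPM per kb of annotated exon. Sort1 was above Nrn1 in 14 of 15 libraries, and their ranges overlapped. Vgf followed at 41.6 (22.8 to 69.7) and Ntrk2 at 34.9 (31.1 to 37.3) CPM per kb, and Vgf was the higher in 11 of 15 libraries. The next genes were Bdnf at 5.71 (4.31 to 7.79) and Ntrk3 at 4.29 (3.93 to 4.61) CPM per kb, with Bdnf higher in 14 of 15 libraries and ranges that overlapped slightly. Ntf3 at 0.465 (0.243 to 0.684) and Ngfr at 0.191 (0.155 to 0.258) CPM per kb closed the order, with Ntf3 above Ngfr in 15 of 15 libraries. Ranges did not overlap between Nrn1 and Vgf, between Ntrk2 and Bdnf, or between Ntrk3 and Ntf3. Exon length here is the union of all annotated transcripts, which is long for Ntrk3 (30170 bases) and Ntrk2 (19292 bases), so a gene that uses few of its exons is placed too low.

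**Figure D2:**
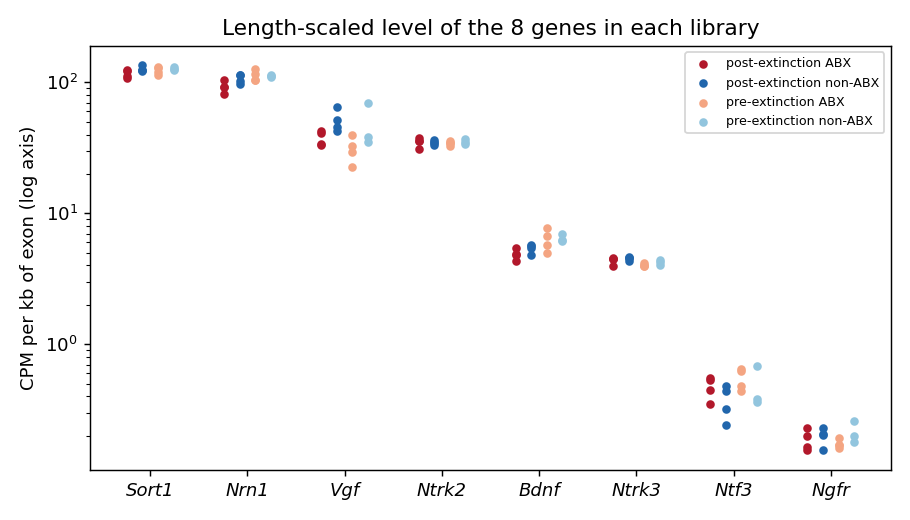
Each point is the level of a gene in 1 library, in CPM per kb of exon on a log axis, with the 8 genes ordered by mean level and coloured by group. Sort1 lies between 107.9 and 135.5 CPM per kb and Ngfr, the lowest, between 0.155 and 0.258.

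The genes also differed in how far libraries of the same group spread. The coefficient of variation within groups was 28.1% for Vgf, and 99.4% of the 1732 genes of similar CPM had a smaller one. For Bdnf it was 12.5%, with 77.4% of 2828 genes of similar CPM below it. The 2 Trk receptor genes spread little, at 5.23% for Ntrk2 and 4.13% for Ntrk3, and only 9.74% of genes of similar CPM spread less than Ntrk3. Low spread was not particular to them. Sort1 was at 5.24%, and 13.8% of genes of similar CPM spread less than Ngfr, against 16.7% for Ntrk2. The highest library exceeded the lowest 3.06-fold for Vgf and 1.81-fold for Bdnf, against 1.17-fold for Ntrk3.

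**Figure D3:**
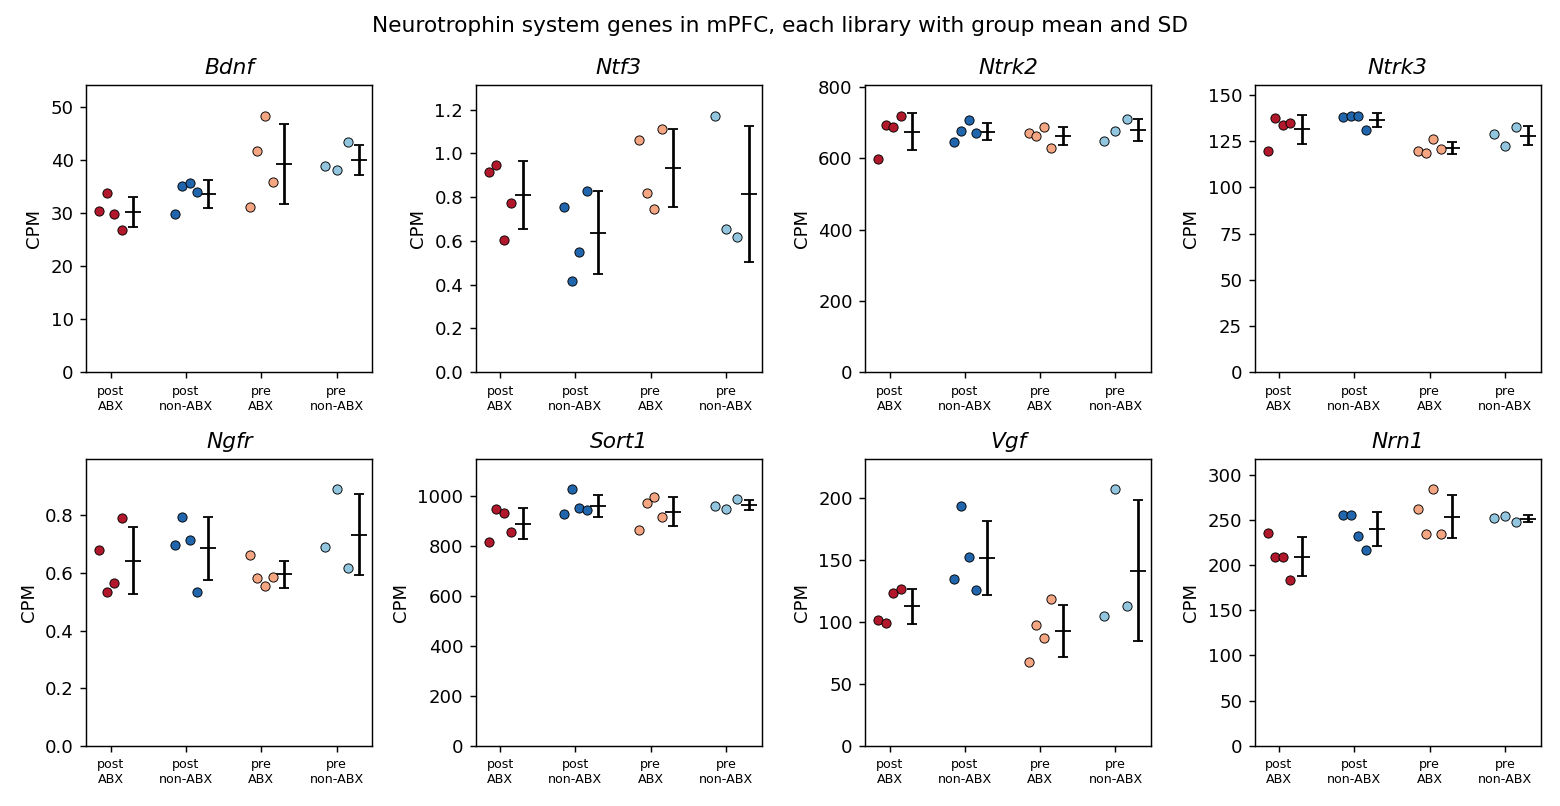
Each panel shows CPM of 1 gene on an axis from 0, with a point per library in the order post-extinction ABX, post-extinction non-ABX, pre-extinction ABX and pre-extinction non-ABX, and the group mean with its SD beside the points. Bdnf averaged 30.2 CPM (ABX) and 33.6 CPM (non-ABX) after extinction and 39.3 CPM (ABX) and 40.1 CPM (non-ABX) before it, and a single pre-extinction non-ABX library (replicate 3) reached 207 CPM of Vgf.

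Bdnf encodes the ligand of TrkB (Entrez 12064, protein-coding, mm10 chr2:109674700-109727043). The mouse gene uses several first exons, each with its own promoter, and counts per gene do not separate them. RefSeq (GRCm38.p6) gave 7 promoter windows for Bdnf, each from 250 bases before to 50 bases after a start, and none of the windows of Ntf3, Ngfr and Ntrk2 or the other 6 of Bdnf held the cyclic-AMP-response-like element TCACGTCA on either strand. The window that did hold it is shown because Bdnf is the member with the lowest p by stage, and activity-dependent Bdnf transcription is known to involve such an element. Its 250 bases before the start, on the plus strand at chr2:109692186-109692435, are printed with the element in capitals.
Bdnf: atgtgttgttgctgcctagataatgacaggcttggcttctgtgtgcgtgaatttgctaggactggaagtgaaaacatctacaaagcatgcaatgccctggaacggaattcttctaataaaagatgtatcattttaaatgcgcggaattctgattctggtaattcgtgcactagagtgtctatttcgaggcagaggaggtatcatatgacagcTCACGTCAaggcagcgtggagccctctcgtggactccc
The element began 38 bases before the start and overlapped a match to its half-site TGACG on the opposite strand. Of 32851 mouse promoter windows 0.441% held TCACGTCA on either strand, 1.79% the full element TGACGTCA, which no member window held, and 20.8% the half-site.

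After extinction Bdnf stood at 30.4, 33.8, 29.8 and 26.8 CPM in the ABX libraries and at 29.9, 35.0, 35.7 and 34.0 CPM in the non-ABX libraries. Before extinction it was at 31.1, 41.8, 48.4 and 35.8 CPM in ABX and at 38.9, 38.1 and 43.4 CPM in non-ABX libraries. The non-ABX libraries did not overlap between stages, with all 4 post-extinction values below all 3 pre-extinction values, whereas 1 low pre-extinction ABX library (replicate 1) lay within the post-extinction ABX range. Non-overlap in the same direction was seen for 3.57% of all genes.

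Averaged over treatment, Bdnf was lower in post- than in pre-extinction libraries, with a log2 fold change of -0.32 (SE 0.08, 95% interval -0.49 to -0.14). This missed the threshold in edgeR (adjusted p = 0.0774), and DESeq2 called it (adjusted p = 0.0179). Of 16816 genes, edgeR called 162 in this average and DESeq2 704. The difference was -0.38 (SE 0.11, edgeR adjusted p = 0.165) in ABX mice and -0.25 (SE 0.12, adjusted p = 0.896) in non-ABX mice. The interaction was -0.13 (95% interval -0.48 to 0.23, adjusted p = 1). With each library left out in turn the averaged estimate stayed between -0.364 and -0.259. It passed in edgeR without pre-extinction ABX replicate 1 (-0.364, adjusted p = 0.033), pre-extinction ABX replicate 4 (-0.338, adjusted p = 0.0398) or the non-ABX library at pre-extinction replicate 3 (-0.335, adjusted p = 0.0341), and had its highest adjusted p, 0.237, without pre-extinction non-ABX replicate 4. Removal of the GC-content trend gave -0.19 (adjusted p = 0.238).

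The log2 fold change of Bdnf in ABX over non-ABX libraries was -0.16 (SE 0.11, edgeR adjusted p = 0.512) after extinction and -0.03 (SE 0.12, adjusted p = 0.894) before it. The average was -0.09 (95% interval -0.27 to 0.08, adjusted p = 0.447), and with the GC-content trend removed it was -0.21 (95% interval -0.38 to -0.04, adjusted p = 0.119).

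Over all 15 libraries the gene whose level followed Bdnf most closely, among 13254 genes at or above 1 CPM, was Pcsk1. It encodes a prohormone convertase of the regulated secretory pathway. Pcsk1 was picked by its likeness, so its correlation is a description. Pearson's r was 0.963 and Spearman's rho 0.921 on log2 CPM, and r was 0.942 with group means removed, so the likeness was present among libraries of the same group. Pcsk1 averaged 42.2 ± 6.04, 47.8 ± 5.54, 56.9 ± 15.1 and 57.8 ± 7.24 CPM (SD, n = 4, 4, 4 and 3) in post-extinction ABX, post-extinction non-ABX, pre-extinction ABX and pre-extinction non-ABX libraries. Its stage difference was -0.35 (SE 0.11, edgeR adjusted p = 0.127). Next in likeness to Bdnf were Slc38a1, a glutamine transporter (r = 0.935), and Atp2a2, a calcium pump of the endoplasmic reticulum (r = 0.930).

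**Figure D4:**
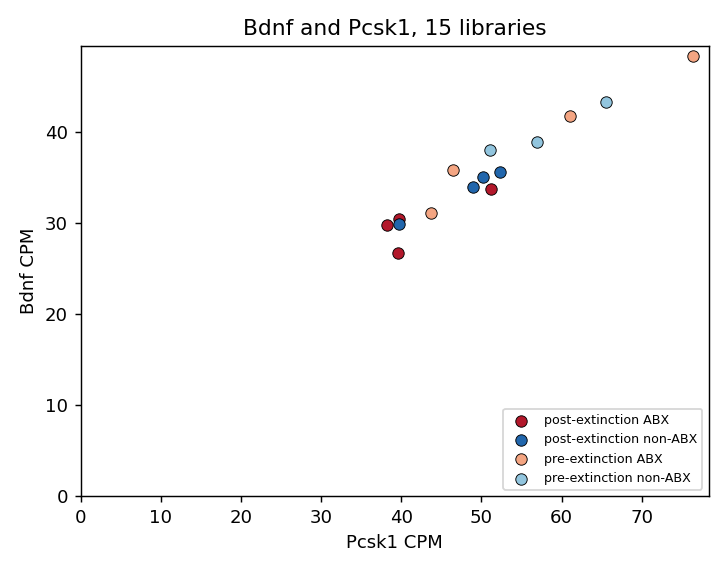
Bdnf CPM (y axis) is plotted against Pcsk1 CPM (x axis) in each of the 15 libraries, coloured by group, with both axes from 0. Both genes are highest in pre-extinction ABX replicate 3, at 48.4 CPM of Bdnf and 76.4 CPM of Pcsk1.

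Other genes that follow neuronal activity were set beside Bdnf. Of 24 activity-regulated genes 22 had negative stage differences (median -0.247), against 49.8% of all genes (median 0.001). The list was chosen with earlier results of these data known. Vgf and Nrn1, which are not in it, had averaged stage differences of 0.19 and -0.17. Of the 24 genes, 3 were called lower after extinction, against 0.743% of all genes. These were the orphan nuclear receptor gene Nr4a2 (-0.46, SE 0.09, edgeR adjusted p = 0.0226), the zinc finger gene Egr2 (-0.88, SE 0.18, adjusted p = 0.0322) and Nr4a3 (-0.62, SE 0.13, adjusted p = 0.0379). Leaving out 1 library kept the call of Nr4a2 in 9 of 15 fits, and lost it without post-extinction ABX replicate 3, post-extinction non-ABX replicate 1 or 3, pre-extinction ABX replicate 3, or pre-extinction non-ABX replicate 1 or 4. Egr2 kept its call in 6 fits, those without post-extinction ABX replicate 1, post-extinction non-ABX replicate 1 or 4, pre-extinction ABX replicate 2 or 4, or pre-extinction non-ABX replicate 3. Nr4a3 kept it in 4 fits, those without post-extinction non-ABX replicate 4, pre-extinction ABX replicate 1 or 4, or pre-extinction non-ABX replicate 3. Egr2 was also lost with the replicate number as a block (adjusted p = 0.0711). The direction held in all of these fits. Of the 10 excitatory neuron markers, 6 had negative stage differences, with a median of -0.014, and 0 were called.

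Ntf3 encodes neurotrophin-3, the preferred ligand of TrkC (Entrez 18205, chr6:126101412-126166772). It was close to the detection limit, with 22 to 68 counts per library. Its levels were 0.915, 0.947, 0.604 and 0.771 CPM in post-extinction ABX, 0.755, 0.416, 0.547 and 0.829 CPM in post-extinction non-ABX, 1.06, 0.817, 0.747 and 1.11 CPM in pre-extinction ABX, and 1.17, 0.652 and 0.617 CPM in pre-extinction non-ABX libraries. All groups overlapped. The averaged ABX difference was 0.26 (SE 0.18, 95% interval -0.13 to 0.65, edgeR adjusted p = 0.335), the only positive estimate for ABX among the 8 members in this average, and the averaged stage difference was -0.29 (SE 0.18, adjusted p = 0.349). Its coefficient of variation within groups, 27.3%, was above that of 82.6% of genes of similar CPM.

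Ntrk2 encodes TrkB, the BDNF receptor, as both full-length kinase and truncated forms that counts per gene do not separate (Entrez 18212, chr13:58806472-59133970). The post-extinction ABX libraries held 599.5, 694, 687.5 and 719.7 CPM and the post-extinction non-ABX libraries 646, 677, 707 and 670.4 CPM. In pre-extinction ABX libraries the level was 669.8, 663, 687 and 628 CPM, and in pre-extinction non-ABX libraries 648, 678 and 710.1 CPM. Only post-extinction ABX replicate 1 stood below the rest, and the groups overlapped throughout. The averaged ABX difference was -0.02 (95% interval -0.12 to 0.08, edgeR adjusted p = 0.808) and the averaged stage difference 0.01 (95% interval -0.09 to 0.11, adjusted p = 0.903).

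Ntrk3 encodes TrkC, the receptor of neurotrophin-3 (Entrez 18213, chr7:78179986-78581034). After extinction its levels were 119.9, 137, 134.0 and 135 CPM in ABX and 138, 139, 139 and 131 CPM in non-ABX libraries. Before extinction they were 120.0, 118.5, 126 and 121 CPM in ABX and 129, 122.5 and 133 CPM in non-ABX libraries. The pre-extinction ABX libraries had the lowest group mean, yet post-extinction ABX replicate 1 and pre-extinction non-ABX replicate 3 lay among them. The averaged stage difference was 0.11 (SE 0.04, 95% interval 0.02 to 0.19) and missed the threshold in edgeR (adjusted p = 0.179). Removing the GC-content trend made it 0.21 (SE 0.05, adjusted p = 0.0392), the only member that passed under that setting. In all, 342 of 15332 genes were called for stage there. The level of Ntrk3 did not rise with each library's trend at its GC content. Pearson's r was -0.502 (adjusted permutation p = 0.114) and Spearman's rho -0.554 (adjusted permutation p = 0.0695). With group means removed r was 0.059. Whether the pass reflects stage or the removal step itself was not tested. The averaged ABX difference was -0.07 (SE 0.04, adjusted p = 0.271), and -0.17 with the trend removed (SE 0.05, 95% interval -0.27 to -0.06, adjusted p = 0.0612).

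The gene most like Ntrk3 across libraries was Pde10a (r = 0.856, rho = 0.846, n = 15), a phosphodiesterase that marks striatal medium spiny neurons, and r was 0.659 with group means removed. The summed striatal markers ran from 291.8 to 322.4 CPM in post-extinction ABX, from 308.4 to 338.9 in post-extinction non-ABX, from 254.2 to 276.6 in pre-extinction ABX and from 261.0 to 279.7 in pre-extinction non-ABX libraries. They were thus above every pre-extinction value in every post-extinction library. Without Pde10a the sums of the other 8 striatal markers overlapped between stages, at 161.6 to 197.5, 162.8 to 179.3, 168.5 to 173.3 and 161.4 to 174.4 CPM in the same order, and no striatal marker was at 0 in every library. The part of striatal tissue in the Ntrk3 values was not tested.

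Ngfr encodes the pan-neurotrophin receptor (Entrez 18053, chr11:95568818-95587698), which in the adult forebrain is found mainly on cholinergic axons and their cells. It had 26 to 45 counts per library. Group means were 0.643 ± 0.118 CPM in post-extinction ABX, 0.685 ± 0.110 in post-extinction non-ABX, 0.596 ± 0.0470 in pre-extinction ABX and 0.732 ± 0.141 in pre-extinction non-ABX libraries (SD, n = 4, 4, 4 and 3), and single libraries ran from 0.533 to 0.890 CPM. The groups overlapped, and the averaged differences were -0.20 (95% interval -0.48 to 0.09, edgeR adjusted p = 0.316) for ABX and 0.01 (-0.27 to 0.29, adjusted p = 0.975) for stage.

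Sort1 encodes sortilin, a sorting receptor that steers BDNF into the regulated secretory pathway and binds proneurotrophins at the cell surface (Entrez 20661, chr3:108283974-108361519). Levels were 816, 947, 930.3 and 855 CPM in post-extinction ABX and 926, 1025, 949.6 and 943 CPM in post-extinction non-ABX libraries. They were 865, 969.6, 996 and 916 CPM in pre-extinction ABX and 959.5, 946 and 986.5 CPM in pre-extinction non-ABX libraries. The lowest libraries were ABX libraries at both stages, within overlapping groups. The ABX difference was -0.12 (SE 0.06, edgeR adjusted p = 0.422) after extinction and -0.04 (SE 0.07, adjusted p = 0.736) before it, with an average of -0.08 (95% interval -0.18 to 0.02). The average stage difference was -0.04 (95% interval -0.14 to 0.06).

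Vgf encodes a secreted neuropeptide precursor that BDNF induces (Entrez 381677, chr5:137025301-137033351). After extinction it stood at 101.5, 99.4, 123 and 127 CPM in ABX libraries and at 135, 194, 152 and 126 CPM in non-ABX libraries. Before extinction it was at 67.7, 97.7, 87.0 and 119 CPM in ABX libraries and at 104.5, 207 and 113 CPM in non-ABX libraries. Values with ABX were mostly below those without, but the ranges overlapped at both stages, by a single pair of libraries after extinction.

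The ABX difference averaged over stages was -0.52 on the log2 scale (SE 0.15, 95% interval -0.84 to -0.20). In edgeR it missed the threshold (adjusted p = 0.0683), and in DESeq2 it passed (adjusted p = 0.0175). Of 16816 genes, edgeR called 105 in this average and DESeq2 1977. The difference was -0.43 (SE 0.20, edgeR adjusted p = 0.379) after extinction and -0.61 (SE 0.22, adjusted p = 0.311) before it, and the interaction was 0.18 (95% interval -0.46 to 0.82, adjusted p = 1). The averaged stage difference was 0.19 (95% interval -0.13 to 0.51, adjusted p = 0.437).

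Single libraries carried much of the Vgf estimate. Without pre-extinction non-ABX replicate 3, the library at 207 CPM, the averaged ABX difference was -0.33 (edgeR adjusted p = 0.233), and the averaged stage difference was 0.38 and passed (adjusted p = 0.0464). Leaving out replicate 4 of either pre-extinction group gave an averaged ABX difference of -0.59, which passed (adjusted p = 0.0262 for the ABX and 0.0405 for the non-ABX library).

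Vgf was also the member with the highest GC content, 64.1% in its longest transcript, against 40.9% for Bdnf. For each gene the mean log2 CPM over the 15 libraries was subtracted. In each library a smooth trend of these deviations on GC content was fitted over all tested genes with a known transcript. The trend is thus relative to the other libraries and includes any group difference shared by genes of like GC content. Its height at the GC content of Vgf was compared with the Vgf level. The trend at that point was -0.16, -0.29, 0.11 and 0.21 in post-extinction ABX, 0.34, 0.44, 0.28 and 0.12 in post-extinction non-ABX, -0.68, -0.27, -0.45 and 0.02 in pre-extinction ABX, and -0.10, 0.64 and -0.22 in pre-extinction non-ABX libraries (log2). These values ordered the libraries almost as Vgf itself did. Pearson's r was 0.964 and Spearman's rho 0.982 over 15 libraries (permutation p = 1e-05 for each, the smallest that 100000 permutations can give, and 8e-05 adjusted over 8 members). It was 0.928 without the 2 libraries farthest from the median, and 0.939 with group means removed. The trend was fitted to the same libraries, with Vgf among the genes, so a relation to it is in part built in. The permutation p therefore does not single out Vgf. How closely other genes of similar GC content followed the trend was not examined.

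With the trend removed the averaged ABX difference of Vgf was -0.10 (SE 0.05, 95% interval -0.22 to 0.01, edgeR adjusted p = 0.25), and its stage difference was -0.03 (adjusted p = 0.837). The genes most like Vgf were Srsf4 and Raver1, which act in RNA splicing, and Lypla2, a depalmitoylating enzyme, with r of 0.983, 0.982 and 0.981. Their GC content was 53.0%, 58.4% and 61.4%. Whether the GC trend reflects library preparation or the RNA in the tissue was not tested. Among the other members only Ntf3 and, by rank, Ngfr passed the same permutation test against the trend at their own GC content. Ntf3 had r = 0.640 (permutation p = 0.0399 adjusted over 8 members) and Ngfr rho = 0.668 (permutation p = 0.0328 adjusted). For Ngfr r was 0.586 and did not pass (permutation p = 0.0585 adjusted), and it was 0.509 with group means removed. The test shuffled libraries across groups, so group differences enter its p, and the relation is in part built in here too. For Ntf3 the relation did not pass by rank (rho = 0.596, permutation p = 0.0568 adjusted), and r was 0.439 with group means removed. The trend at its GC content spanned only -0.04 to 0.05 (log2). With the trend removed the averaged differences of Ntf3 were 0.23 for ABX and -0.27 for stage.

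**Figure D5:**
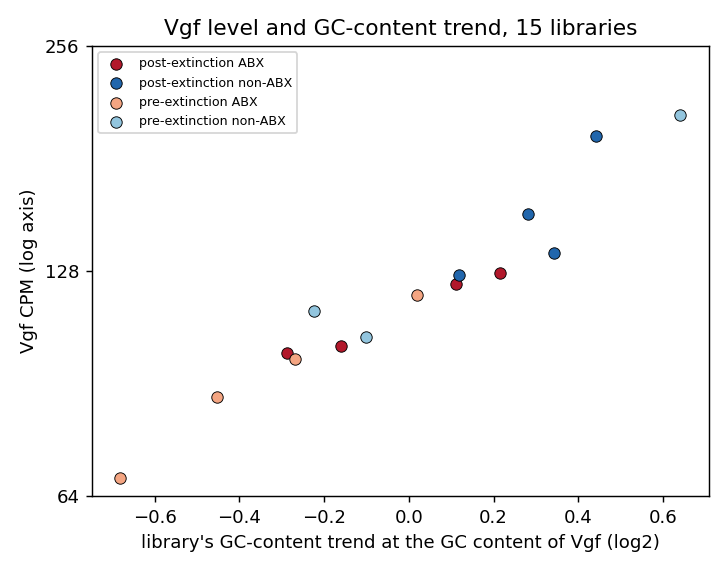
Vgf CPM on a log axis (y) is plotted against the height of each library's GC-content trend at the GC content of Vgf (x, log2), with libraries coloured by group. Libraries with a higher trend mostly have more Vgf (r = 0.964), with the ends at pre-extinction ABX replicate 1 (67.7 CPM) and pre-extinction non-ABX replicate 3 (207 CPM).

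Nrn1 encodes neuritin, a membrane-anchored protein that promotes neurite and spine growth and that neuronal activity and neurotrophins induce (Entrez 68404, chr13:36725622-36734477). After extinction it was at 235.7, 209, 209 and 184 CPM in ABX libraries and at 255, 255.6, 232 and 217.0 CPM in non-ABX libraries. Before extinction the level was 262, 234, 284 and 235 CPM in ABX and 252, 254.5 and 247 CPM in non-ABX libraries. The post-extinction ABX group held the 3 lowest libraries of the 15, and its highest library lay within the ranges of the groups it was compared with.

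For post- against pre-extinction the Nrn1 difference was -0.28 in ABX mice (SE 0.08, 95% interval -0.45 to -0.10, edgeR adjusted p = 0.165) and -0.07 in non-ABX mice (SE 0.09, adjusted p = 0.896). For ABX against non-ABX it was -0.20 after extinction (SE 0.08, adjusted p = 0.337) and 0.01 before it (SE 0.09, adjusted p = 0.939). These comparisons share the post-extinction ABX libraries. The difference between them, the interaction, was -0.21 (SE 0.12, 95% interval -0.47 to 0.05, adjusted p = 1), so an ABX difference confined to 1 stage was not shown. The averaged stage difference was -0.17 (SE 0.06, adjusted p = 0.153) and the averaged ABX difference -0.09 (SE 0.06, adjusted p = 0.301). After removal of the GC-content trend these were -0.10 (adjusted p = 0.352) and -0.17 (adjusted p = 0.0743). Exons of Nrn1 overlap those of the opposite-strand gene Fars2 over 501 of 2249 bases, and the library kit does not keep strand. Fars2 had 11.7 to 14.9 CPM, and how reads in the shared bases were assigned is not known. Bdnf and Sort1 share 896 of 6217 and 338 of 7569 exon bases with opposite-strand antisense genes, which were not found by name in the count table.

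How far members varied together was examined among libraries of the same group. Of 28 pairs, correlated on log2 CPM with group means removed over 15 libraries, 0 passed a permutation test adjusted over the 28. The strongest pair was Bdnf and Sort1, with r = 0.739 (permutation p = 0.00925, adjusted p = 0.259) and rho = 0.761 (adjusted permutation p = 0.176), and r was 0.601 without the 2 libraries farthest from the median of Bdnf. Ntrk2 and Ntrk3 followed with r = 0.712 (adjusted permutation p = 0.266) and rho = 0.729 (adjusted permutation p = 0.176). Their r was 0.35 without the 2 libraries farthest from the median of Ntrk2, so the size of r depended on them. Among the activity-dependent genes, r was 0.007 between Bdnf and Vgf, 0.22 between Bdnf and Nrn1, and -0.161 between Vgf and Nrn1.

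Outside the 8 genes, the other members' closest companions were as follows, each a description over 15 libraries. Sort1 was most like Tex2 (r = 0.949), Sorl1, a related sorting receptor (0.927), and Pcdhac2, a protocadherin (0.925). Ntrk2 was most like Lyst, a regulator of lysosomal trafficking (0.820), Fryl (0.813) and Srgap3 (0.789). Nrn1 was most like Fzd10os (0.914), Tm6sf1 (0.891) and Rgs6, a regulator of G-protein signalling (0.875). Ccsap (0.818) and Dym (0.814) came after Pde10a for Ntrk3. Ntf3 and Ngfr were below 1 CPM and were not ranked.

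The rest of the pathway was represented by 64 further genes, of which 63 were tested. In each of the 7 comparisons 0 of these 63 were called. Ntf5, the gene of neurotrophin-4, was at 0.229 ± 0.0704 CPM (SD, n = 15). For ABX averaged over stages 26 of the 63 had positive and 37 negative values (median -0.022), with 8 and 14 at an unadjusted p under 0.05, against 30.6% of all genes in either direction. For stage averaged over treatment 33 were positive and 30 negative (median 0.021), with 8 and 12 at that p, against 20.4% of all genes.

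By the smallest p, the pathway genes for ABX were Lingo1, a co-receptor in a complex with the pan-neurotrophin receptor (-0.57, SE 0.14, edgeR adjusted p = 0.0609), Sh2b1, an adaptor of Trk receptors (-0.35, SE 0.10, adjusted p = 0.0649), and Nras, a small GTPase downstream of Trk (0.20, SE 0.05, adjusted p = 0.068). Once the GC-content trend was taken out, Lingo1 was at -0.33 and passed (adjusted p = 0.0247), whereas Sh2b1 was at -0.06 (adjusted p = 0.319) and Nras at 0.09 (adjusted p = 0.112). For stage they were Mapk3, a kinase of the Ras pathway (0.31, SE 0.07, adjusted p = 0.0513), Camk4, a calcium-dependent kinase that activates the transcription factor CREB (-0.27, SE 0.07, adjusted p = 0.0725), and Cadps2, a vesicle priming protein that promotes BDNF release (-0.23, SE 0.06, adjusted p = 0.08). Without the trend Mapk3 was at 0.15 (adjusted p = 0.161), while Camk4 at -0.25 (adjusted p = 0.0366) and Cadps2 at -0.22 (adjusted p = 0.0441) passed. DESeq2 called all of these 6 genes, which were picked by their p in the same libraries, with adjusted p between 0.00616 and 0.0206, and it called 1977 genes for ABX and 704 for stage in all. In the interaction the smallest p belonged to Nradd, Cadps2 and Hap1, at 0.72, -0.22 and 0.23 (adjusted p = 1 for each). Of the activity-regulated genes, Inhba, a subunit of activin, was called lower with ABX (-0.59, SE 0.10, edgeR adjusted p = 0.0336), against 0.464% of all genes. It kept the call in 9 of 15 fits with a library left out, and lost it without post-extinction ABX replicate 1, post-extinction non-ABX replicate 2 or 3, pre-extinction ABX replicate 1 or 3, or pre-extinction non-ABX replicate 3.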

How the data were processed

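The library kit, SMARTer Ultra Low Input V4, keeps no strand, and the labels' protocol speaks of sorted cells although the source is dissected tissue. The authors deposited raw counts per Entrez gene. STAR 2.3.0, CASAVA 1.8.2 and the build mm10 are named in the submitters' processing notes, but no counting program, annotation or filter is.

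Of 27179 identifiers 25275 matched a symbol in a RefSeq table of the same build, and all per-sample columns were used. In R 4.3.3, edgeR 4.0.16 kept genes by filterByExpr (minimum count 10, minimum total 15), scaled libraries by TMM (0.969 to 1.03) and fitted 4 group means to all 15 libraries by quasi-likelihood. Tests were two-sided with Benjamini-Hochberg adjustment over 16816 genes. The biological coefficient of variation was 0.112, so spread between libraries rather than depth set the precision of all but the lowest genes. Standard errors are the absolute log2 fold change over the square root of F. Correlations used log2 CPM with a prior count of 2 and 100000 permutations, within groups for pairs of members and across all 15 libraries for the GC-content trend. GC content and exon lengths came from GENCODE transcripts of the same build, and promoters from RefSeq GRCm38.p6, with windows for 4 of the 8 members.

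The alternatives were DESeq2 1.42.0, RLE scaling, no filter, a mean of at least 1 CPM, the replicate number as a block, the compared groups alone, removal of each library's GC-content trend (a spline with 5 degrees of freedom, 91.2% of tested genes and all 8 members), and each library left out. The test and the GC-content step were run on simulated data. For the GC-content step the simulated trend came from the same spline that removes it, and the simulated spread between libraries was smaller than in the data. That run therefore cannot tell how well the step works at the spread of these libraries. The text names all 8 members, the 3 genes most like each, and in the pathway and activity lists any called gene or the 3 of smallest p in the averaged comparisons and the interaction. Some pathway genes are not reported here. The members and lists were chosen with earlier results of these data known.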

Additional observations from a re-analysis of the deposited data

Results flagged for a closer look

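In 1 of 24 sets of 4 libraries, each a member gene in a group, a single library stood far from the others. This was Ntrk3 in post-extinction non-ABX libraries, where replicate 4 was at 131 CPM and the other 3 libraries lay between 138 and 139 CPM. The gap was 0.898 of the group's range, above Dixon's critical value of 0.829 for 4 libraries. Chance gives about 1 such case in 20 sets.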

How the results depend on the processing

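Leaving out 1 library in turn left the number of members called at 0 to 2 for stage averaged over treatment and at 0 to 1 for ABX averaged over stages, and the same averages gave 1 (Bdnf) and 1 (Vgf) in DESeq2. Removal of the GC-content trend gave 1 (Ntrk3) for stage. The other 5 comparisons held 0 called members under every alternative run, and 0 of the 28 pairs of members passed with group means kept, with a prior count of 0.5 or with any library left out. Among member results, 337 kept direction and side of the threshold, 14 changed direction and 3 newly passed under the settings other than leaving out 1 library.

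The 14 values after a change of direction follow, and the cause was not tested. Ntrk2 after extinction (ABX over non-ABX) was -0.0069 with no filter, -0.0011 with the replicate block, -0.0041 with the compared groups alone and -0.0346 with the GC-content trend removed. The other 10 came with that trend removed. Ngfr had 0.0068, 0.110 and 0.0584 for ABX before, after and averaged, and -0.109 and -0.160 for stage in ABX mice and averaged. Vgf had -0.0355, -0.0181 and -0.0268 for stage in non-ABX mice, in ABX mice and averaged. Nrn1 had -0.0763 for ABX before extinction and Ntrk2 0.0138 for stage in non-ABX mice.

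With a library left out, 41 member values changed direction and 6 newly passed. Bdnf before extinction (ABX over non-ABX) ran from -0.146 to 0.066 and Nrn1 from -0.045 to 0.0496. Ntrk2 ran from -0.032 to 0.053 for ABX after extinction, -0.037 to 0.0085 for ABX averaged, -0.006 to 0.037 for stage averaged, -0.0034 to 0.082 in ABX mice and -0.038 to 0.026 in non-ABX mice. Ngfr ran from -0.0499 to 0.087 for stage averaged, -0.0059 to 0.188 in ABX mice and -0.197 to 0.065 in non-ABX mice. For stage in non-ABX mice Ntf3 ran from -0.53 to 0.0062, Sort1 from -0.037 to 0.013 and Vgf from -0.074 to 0.483. The interaction ran from -0.214 to 0.325 for Ntf3, -0.0036 to 0.065 for Ntrk3 and -0.203 to 0.353 for Vgf.

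Same-numbered libraries did not deviate together throughout (correlations -0.491 to 0.374, 8 of 21 pairs above 0.1). Pairs of replicate 1 libraries were all positive (0.018 to 0.361), whereas pairs of each other number had both signs. The replicate number was therefore not taken to pair libraries. With it as a block 0 members were called in any comparison, with Vgf at -0.52 for ABX (adjusted p = 0.0511) and Bdnf at -0.33 for stage (adjusted p = 0.0766). Over all genes the averaged ABX and stage comparisons called 105 and 162 genes, 666 and 96 with the block, 1977 and 704 in DESeq2, and 644 and 342 with the GC-content trend removed. Counting error weighs most on Ntf3 and Ngfr, with 22 to 68 and 26 to 45 counts per library.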
